A study of Homo sapiens with 8 samples.

Results

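The response of MOLM14 leukaemia cells to gilteritinib in mouse bone marrow was measured in 4 of the 8 libraries of the series, the 4 whose titles carry the code JE558. MOLM14 is a human acute myeloid leukaemia cell line, and its labelled genotype is an internal tandem duplication of the receptor FLT3 (FLT3-ITD) with a rearranged MLL gene (MLLr). The cells were grown as a xenograft in mice, and the marrow was sorted for human CD45 before RNA extraction. Gilteritinib, an inhibitor of FLT3 and AXL kinases given to patients with FLT3-mutated leukaemia, was given for 1 week and compared with vehicle. The mice also ate a ketogenic or a standard diet for 3 weeks, so vehicle and gilteritinib were each given on both diets, and each of the 4 combinations has 1 library. The drug comparison set 2 gilteritinib libraries against 2 vehicle libraries with diet as a covariate. The labels name 1 cell line for all 4, the titles carry 1 code, and the labels do not say how many animals a library holds or which mouse strain was the host. P-values therefore measure the spread between these libraries, which may be technical.

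FLT3 with an internal tandem duplication is active without its ligand, and its signal runs through STAT5, the RAS to ERK cascade and the PI3 kinase to mTOR cascade. STAT5 turns on feedback and survival genes such as CISH, PIM1 and BCL2L1. ERK turns on immediate early genes such as EGR1 and its own brakes, the DUSP and SPRY genes, and mTOR feeds amino acid uptake, serine synthesis and sterol synthesis through ATF4 and SREBP. In FLT3-mutated leukaemia, inhibition of the receptor is known to slow the cell cycle and can let blasts mature along the monocyte and granulocyte lineages.

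The vehicle libraries held 33611830 counts on the standard diet and 16290265 on the ketogenic diet, and the gilteritinib libraries 15557885 and 20783534. A count of 0 allows up to 0.0893 to 0.193 CPM (counts scaled to the size of the library), depending on the library. The 7 leukaemia markers were all detected, at summed levels of 2780.0, 2860.0, 4990.0 and 5530.0 CPM in the order just given, and LYZ led that sum. Without LYZ the sums were 1120, 1000, 1140 and 1000 CPM in the same order, so the higher sums with gilteritinib came from LYZ. Of 5 erythroid markers, 4 had 0 counts in all 4 libraries, ALAS2, HBA1 and HBA2 among them, and the summed level was at most 0.0595 CPM. The T and NK cell sum (67.6 to 96.2 CPM) was nearly all NKG7, and it was higher in both gilteritinib libraries. Without NKG7 it was 0.675 to 2.38 CPM, and CD3G and KLRD1 had 0 counts. The stromal and endothelial sum (233 to 306 CPM) was nearly all PECAM1, a gene that myeloid cells also express, and without it the sum was under 1 CPM in every library. Tissue macrophage markers summed to 0.257 to 1.59 CPM, with C1QB, C1QC, TIMD4 and VSIG4 at 0, and neutrophil markers to 2.31 to 3.6 CPM, with LTF, LCN2 and CEACAM8 at 0. The ribosomal protein share of counts was 15.5% and 14.8% with vehicle and 17.8% and 19.3% with gilteritinib, and the mitochondrial transcript share was 9.28% and 11.8% against 10.2% and 13%.

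In all, 2850 of 14029 tested genes (20.3%) were called at an adjusted p under 0.05 (edgeR quasi-likelihood test, Benjamini-Hochberg), with 1473 higher (10.5%) and 1377 lower (9.82%) under gilteritinib. The shares of 10.5% and 9.82% are the background for the counts of each gene list below. Changes of at least 2-fold made up 241 of the higher calls (1.72% of tested genes) and 223 of the lower calls (1.59%). The median log2 fold change over all tested genes was -0.0064. It was -0.15 when library totals replaced the TMM scaling, which gave 874 higher and 2774 lower calls, so counts of small changes depend on the scaling. The drug to vehicle ratio had the same direction under both diets in 9998 of the 14029 tested genes, and in all 2850 called genes, which the test chose on these same pairs. In bulk RNA, fewer cells of a type and less RNA per cell cannot be told apart, and this holds for each result below. With 1 library left out, only 1 diet still has both drug arms, and the drug effect is then the ratio of that pair of libraries, with the spread borrowed from the 4 libraries labelled liver. The standard-diet pair alone (either ketogenic library left out) gave 868 or 862 calls, and the ketogenic-diet pair alone (either standard library left out) gave 1744 or 1747.

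**Figure D1:**
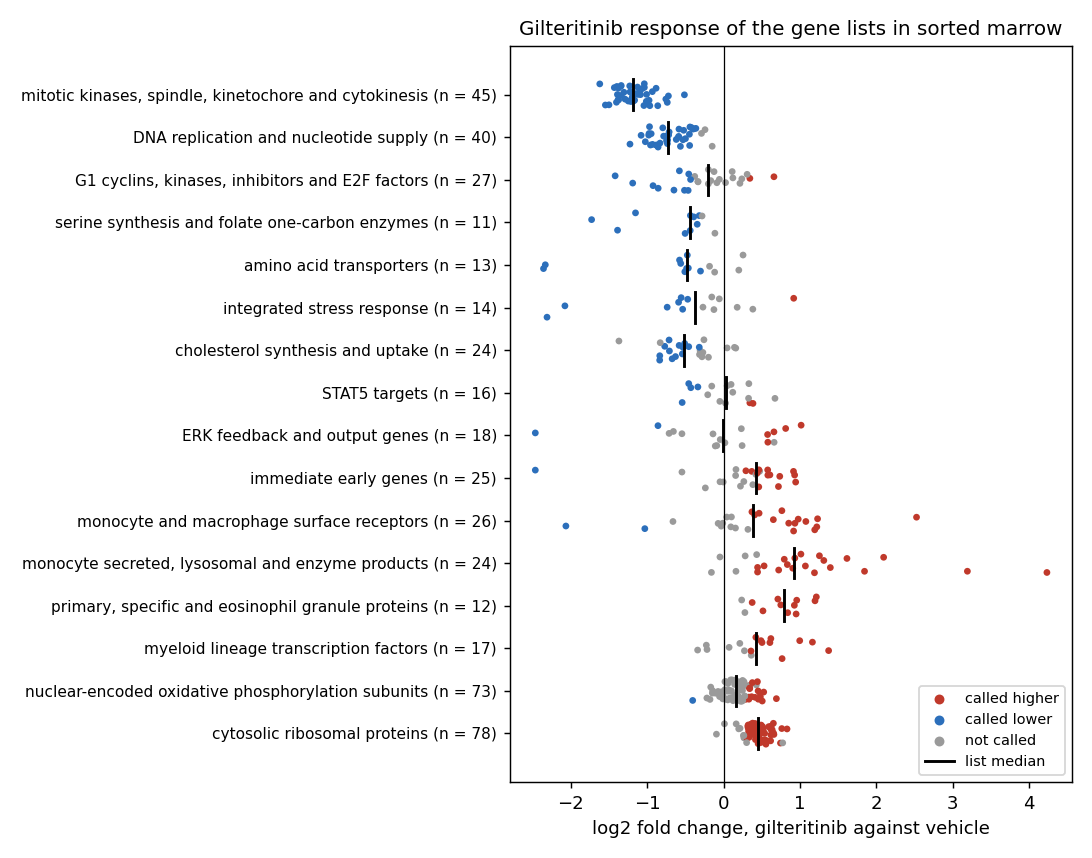
Each point is 1 tested gene of a gene list, placed by its log2 fold change between gilteritinib and vehicle in the 4 marrow libraries, with black bars for the list medians and colours for calls at an edgeR adjusted p under 0.05. All 45 mitosis genes lie left of zero (median -1.19), while the monocyte products (median 0.92) and ribosomal proteins (median 0.45) lie mostly to the right.

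FLT3, the target (ENSG00000122025, chromosome 13, 28003274 to 28100592, minus strand, GRCh38), stood at 552 and 470.0 CPM with vehicle and 601 and 477 CPM with gilteritinib, in each case with the standard diet first and the ketogenic diet second. The ranges overlap, the larger gap runs between the diets, and the drug log2 fold change was 0.071 (SE 0.11, edgeR adjusted p = 0.697). Transcript levels say nothing of the kinase activity that gilteritinib blocks. AXL, the other known target of the drug and a receptor tyrosine kinase linked to resistance, went from 27.9 and 32.9 CPM to 23.6 and 20.4 CPM, and it fell by 0.46 log2 units (SE 0.14, edgeR adjusted p = 0.0135). Its relative TYRO3 went from 5.08 and 6.99 CPM to 2.90 and 2.45 CPM and fell by 1.17 log2 units (SE 0.27, edgeR adjusted p = 0.000937), while MERTK was too low to test. Without either ketogenic library, the standard-diet pair alone gave no call for AXL and TYRO3 (adjusted p = 0.19 to 0.649).

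CSF1R, the receptor that drives macrophage growth, went from 27.2 and 19.5 CPM to 49.6 and 59.7 CPM, with both treated libraries above both vehicle libraries, and it rose by 1.22 log2 units (SE 0.14, edgeR adjusted p = 1.41e-08). The granulocyte colony-stimulating factor receptor CSF3R rose by 0.86 log2 units (SE 0.12, edgeR adjusted p = 2.89e-07), and the SRC-family kinase FGR rose by 0.84 log2 units (SE 0.15, edgeR adjusted p = 6.23e-05). In the whole list of growth factor receptors and proximal kinases, 3 of 24 tested genes rose (10.5% of all genes did) and 2 fell, at a median of 0.08 (all genes -0.0064), and the 19 others, among them SYK, LYN, BTK, PTPN11 and GRB2, were not called. The standard-diet pair alone called 2 of the list higher and 0 lower, the ketogenic-diet pair alone 4 and 2, and library totals as the scaling gave 3 and 5. The list median turned to -0.068 with library totals as the scaling. The call of FGR was lost in the standard-diet pair alone, without either ketogenic library (adjusted p = 0.261 to 0.269).

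Of 16 STAT5 targets 2 were called higher and 4 lower (background 10.5% and 9.82% of all genes), at a median of 0.037, or -0.11 with library totals as the scaling. The log2 fold changes ran from -0.54 to 0.67. MYC was among those called higher, by 0.39 log2 units (SE 0.11, edgeR adjusted p = 0.00958), and is described further below. Higher and lower calls in the list numbered 1 and 0 in the standard-diet pair alone, 1 and 1 or 2 in the ketogenic-diet pair alone and 0 and 4 with library totals as the scaling. CISH, a STAT5-induced inhibitor of cytokine signalling, went from 60.1 and 55.9 CPM to 41.1 and 38.7 CPM, with no overlap, and it fell by 0.54 log2 units (SE 0.12, edgeR adjusted p = 0.000649). The survival kinase PIM1, a direct STAT5 target, went from 293 and 249 CPM to 231 and 174 CPM, with no overlap between the groups, and it fell by 0.43 log2 units (SE 0.11, edgeR adjusted p = 0.00216). The cell cycle phosphatase CDC25A fell by 0.46 log2 units (SE 0.15, edgeR adjusted p = 0.024) and SOCS2, another feedback inhibitor, fell by 0.34 log2 units (SE 0.11, edgeR adjusted p = 0.0182). MCL1 had a log2 fold change of 0.099 (SE 0.11, edgeR adjusted p = 0.565), and BCL2L1 one of -0.15 (SE 0.13, edgeR adjusted p = 0.455). Of the single-pair estimates for CISH, that without gilteritinib on the standard diet was called (adjusted p = 0.0482), and those without vehicle on the standard diet, vehicle on the ketogenic diet and gilteritinib on the ketogenic diet were not (adjusted p = 0.0503, 0.0643 and 0.0598). PIM1 was not called when either ketogenic library was left out (adjusted p = 0.276 to 0.285). Neither diet pair alone called CDC25A and SOCS2, whichever library was left out (adjusted p = 0.0676 to 0.586).

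Among ERK feedback and output genes, 5 of 18 rose (27.8%) and 2 fell (11.1%), against 10.5% and 9.82% of all genes, at a median of -0.012. In the standard-diet pair alone 4 of them were called higher and 1 lower, and in the ketogenic-diet pair alone 1 and 1, and library totals as the scaling gave 4 and 3. The largest fall of any gene named here was that of EGR1, a zinc finger factor switched on within minutes of ERK activation (ENSG00000120738, chromosome 5, 138465490 to 138469315, plus strand). EGR1 stood at 35.3 and 48.2 CPM with vehicle and at 6.07 and 9.10 CPM with gilteritinib, so both treated libraries lay far below both vehicle libraries. It fell by 2.46 log2 units (SE 0.15, edgeR adjusted p = 7.31e-17), with log2 ratios of -2.52 under the standard and -2.39 under the ketogenic diet. The ERK phosphatase DUSP6, often read as a gauge of ERK output, did not follow: it stood at 60.4 and 67.8 CPM with vehicle and 79.3 and 72.2 CPM with gilteritinib, a log2 fold change of 0.24 (SE 0.12, edgeR adjusted p = 0.131). SPRY4 and SPRY1, brakes on receptor signalling, had log2 fold changes of -0.66 (SE 0.26, edgeR adjusted p = 0.0623) and -0.71 (SE 0.35, edgeR adjusted p = 0.147). The ETS factor ETV4 fell by 0.86 log2 units (SE 0.31, edgeR adjusted p = 0.0454), whereas PHLDA1 rose by 0.81 log2 units (SE 0.19, edgeR adjusted p = 0.00122) and the chromatin protein HMGA2 rose by 1.02 log2 units (SE 0.31, edgeR adjusted p = 0.0136). Leaving out either standard-diet library ended the calls of PHLDA1 and HMGA2 (adjusted p = 0.344 to 0.383 in the ketogenic-diet pair alone). ETV4 lost its call with any 1 of the 4 libraries left out (adjusted p = 0.0801 to 0.431).

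Immediate early genes other than EGR1 rose or were not called, with 13 of 25 higher, 1 lower (EGR1 itself) and a median of 0.42, or 0.28 with library totals as the scaling. JUN, a subunit of the AP-1 factor, went from 20.2 and 26.9 CPM to 38.9 and 51.6 CPM, with no overlap, and it rose by 0.94 log2 units (SE 0.13, edgeR adjusted p = 1.58e-07). FOSL2, another AP-1 subunit, rose by 0.92 log2 units (SE 0.11, edgeR adjusted p = 1.21e-08), and the nuclear receptor NR4A2 rose by 0.93 log2 units (SE 0.17, edgeR adjusted p = 3.96e-05). KLF2, a quiescence factor of blood cells, rose by 0.74 log2 units (SE 0.11, edgeR adjusted p = 7.93e-07), and FOSB rose by 0.72 log2 units (SE 0.11, edgeR adjusted p = 1.86e-06). FOS, the partner of JUN in AP-1, stood at 739 and 776 CPM with vehicle and 754 and 756 CPM with gilteritinib, a log2 fold change of -0.004 (SE 0.11, edgeR adjusted p = 0.987). JUN, FOSL2, NR4A2 and KLF2 kept their calls with each of the 4 libraries left out in turn. From the standard-diet pair alone 8 members of the list were called higher, and from the ketogenic-diet pair alone 6.

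The promoter of EGR1 is shown because it is the classic example of ERK control through the factor SRF, which binds the CArG box together with ternary complex factors that ERK phosphorylates. Its RefSeq promoter window, from 250 bases before to 50 bases after the annotated start (GRCh38.p14, chr5:138465229-138465528, plus strand), holds 2 CArG boxes, in capitals below. CArG boxes, searched on both strands, occur in 1% of the 9403 promoters of tested genes and in 1 of 19 promoters of the immediate early list, which is that of EGR1. A match is a description of the letters and not evidence of binding.
EGR1: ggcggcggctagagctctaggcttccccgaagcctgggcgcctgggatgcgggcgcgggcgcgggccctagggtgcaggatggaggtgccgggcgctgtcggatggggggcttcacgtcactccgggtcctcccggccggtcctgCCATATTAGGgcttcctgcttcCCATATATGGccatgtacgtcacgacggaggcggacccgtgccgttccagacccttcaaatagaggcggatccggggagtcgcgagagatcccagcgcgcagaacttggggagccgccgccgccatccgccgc

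Of the lists examined, that of mitosis had the largest share of called members. Of 45 tested genes for mitotic kinases, spindle, kinetochore and cytokinesis, 45 fell, with log2 fold changes from -1.62 to -0.51 and a median of -1.19 (background 9.82% of all genes lower, median -0.0064). TOP2A, the topoisomerase that untangles chromosomes before division (ENSG00000131747, chromosome 17, 40388516 to 40417950, minus strand), went from 255 and 231 CPM to 88.3 and 78.3 CPM. The treated libraries lay close together and far below both vehicle libraries, and TOP2A fell by 1.55 log2 units (SE 0.11, edgeR adjusted p = 4.5e-15). KIF14, a kinesin of the midbody, went from 43.7 and 42.2 CPM to 13.1 and 14.8 CPM and fell by 1.62 log2 units (SE 0.14, edgeR adjusted p = 1.79e-12). The checkpoint kinase BUB1 fell by 1.43 log2 units (SE 0.12, edgeR adjusted p = 1.99e-12) and the chromokinesin KIF4A fell by 1.499 log2 units (SE 0.17, edgeR adjusted p = 3.75e-09). Of the kinases that drive mitosis, PLK1 fell by 1.29 log2 units (SE 0.11, edgeR adjusted p = 1.99e-12) and CDK1 fell by 1.17 log2 units (SE 0.12, edgeR adjusted p = 1.08e-10). MKI67, the antigen used to count cycling cells, went from 72.9 and 102 CPM to 30.4 and 59.5 CPM and fell by 1.01 log2 units (SE 0.12, edgeR adjusted p = 1.05e-08), with the ketogenic treated library closest to the vehicle libraries.

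Other genes of mitosis, outside the list, were also among the largest falls where the mean log2 CPM is 3 or more. CDCA2, a phosphatase targeting subunit on mitotic chromatin, fell by 1.68 log2 units (SE 0.17, edgeR adjusted p = 2.18e-09), and the spindle protein CKAP2L fell by 1.63 log2 units (SE 0.17, edgeR adjusted p = 3e-10). The kinases MELK and PBK, both high in dividing cells, fell by 1.61 and 1.58 log2 units. Within the list, the fall was deeper under the standard diet, where the list median of the log2 ratios was -1.40, than under the ketogenic diet, where it was -1.004, and that difference was not tested. The standard-diet pair alone called 45 of the 45 and the ketogenic-diet pair alone 43.

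DNA replication genes followed, with 37 of 40 lower, none higher and a median of -0.72. RRM2, the subunit that limits deoxynucleotide supply, went from 156 and 165 CPM to 61.6 and 76.5 CPM, with no overlap, and it fell by 1.22 log2 units (SE 0.11, edgeR adjusted p = 6.09e-12). The origin recognition subunit ORC1 fell by 1.08 log2 units (SE 0.14, edgeR adjusted p = 9.56e-08), the primase PRIM1 fell by 1.02 log2 units (SE 0.16, edgeR adjusted p = 2.26e-06) and the replication factor MCM10 fell by 0.98 log2 units (SE 0.14, edgeR adjusted p = 2.26e-07). POLE2, a subunit of the leading-strand polymerase, fell by 0.97 log2 units (SE 0.19, edgeR adjusted p = 0.000106). The members not called were RFC2 (-0.29), RPA2 (-0.24) and POLA2 (-0.15), by log2 fold change. The ketogenic-diet pair alone called 19 or 20 of the 40, depending on which standard library was left out, and the standard-diet pair alone 34, with median log2 ratios of -0.56 and -0.86.

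At the G1 checkpoint upstream of replication the response was mixed, with 2 of 27 higher (7.41%) and 10 lower (37.0%) at a median of -0.20. Taken alone, the standard-diet pair called 1 higher and 7 lower in this list, and the ketogenic-diet pair 0 and 5, and library totals as the scaling gave 1 and 14. The late E2F factors E2F7 and E2F8, which are themselves cell cycle targets, went from 15.0 and 13.8 CPM to 5.08 and 5.67 CPM and from 12.8 and 12.6 CPM to 4.69 and 6.50 CPM, so each treated library stood below each vehicle library. E2F7 fell by 1.42 log2 units (SE 0.19, edgeR adjusted p = 1.59e-07) and E2F8 fell by 1.19 log2 units (SE 0.20, edgeR adjusted p = 9.04e-06). Cyclin E2 (CCNE2), which opens S phase with CDK2, fell by 0.92 log2 units (SE 0.16, edgeR adjusted p = 2.4e-05), and the pocket protein RBL1 fell by 0.85 log2 units (SE 0.14, edgeR adjusted p = 5.18e-06). No D cyclin was called lower. CCND1 went from 32.7 and 30.6 CPM to 56.6 and 43.7 CPM and rose by 0.66 log2 units (SE 0.12, edgeR adjusted p = 7.91e-05), CCND2 rose by 0.34 log2 units (SE 0.12, edgeR adjusted p = 0.0321), and CCND3, the most abundant D cyclin here, had a log2 fold change of 0.026 (SE 0.11, edgeR adjusted p = 0.899). The inhibitors CDKN1A and CDKN1B had log2 fold changes of 0.24 (SE 0.11, edgeR adjusted p = 0.13) and -0.20 (SE 0.14, edgeR adjusted p = 0.325). In the ketogenic-diet pair alone, without either standard-diet library, CCND1 was no longer called (adjusted p = 0.0743 to 0.0773). No single diet pair gave a call for CCND2, whichever library was left out (adjusted p = 0.183 to 0.44). The rise of CCND2 was no longer called with library totals as the scaling.

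Promoters of 3 of the mitotic genes with the largest falls and of 1 replication gene are shown because their letters hold the elements that textbook models tie to cell cycle timing, the CHR element (TTTGAA or TTTAAA) with CCAAT boxes for genes of late phases and the E2F element (TTTNGCGC) for genes of early S phase. All were searched on both strands in the same 300-base RefSeq window (GRCh38.p14), and the capitals mark every match. The windows of TOP2A (chr17:40417847-40418146, minus strand), KIF14 (chr1:200620702-200621001, minus strand) and KIF4A (chrX:70289854-70290153, plus strand) hold CHR letters and CCAAT boxes, and that of POLE2 (chr14:49688165-49688464, minus strand), chosen after its matches were seen, holds 2 runs of the E2F letters and no CCAAT box.
TOP2A: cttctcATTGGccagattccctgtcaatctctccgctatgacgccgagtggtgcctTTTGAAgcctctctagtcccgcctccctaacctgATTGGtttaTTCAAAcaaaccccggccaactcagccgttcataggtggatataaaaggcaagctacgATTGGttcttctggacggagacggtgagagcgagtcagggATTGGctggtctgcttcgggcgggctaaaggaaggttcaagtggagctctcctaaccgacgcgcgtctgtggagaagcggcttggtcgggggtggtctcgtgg
KIF14: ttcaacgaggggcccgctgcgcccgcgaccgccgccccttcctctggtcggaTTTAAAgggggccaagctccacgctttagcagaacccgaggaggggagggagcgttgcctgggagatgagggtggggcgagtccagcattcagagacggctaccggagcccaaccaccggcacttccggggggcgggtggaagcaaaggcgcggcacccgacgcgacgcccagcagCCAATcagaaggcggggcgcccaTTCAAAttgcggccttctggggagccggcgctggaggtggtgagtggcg
KIF4A: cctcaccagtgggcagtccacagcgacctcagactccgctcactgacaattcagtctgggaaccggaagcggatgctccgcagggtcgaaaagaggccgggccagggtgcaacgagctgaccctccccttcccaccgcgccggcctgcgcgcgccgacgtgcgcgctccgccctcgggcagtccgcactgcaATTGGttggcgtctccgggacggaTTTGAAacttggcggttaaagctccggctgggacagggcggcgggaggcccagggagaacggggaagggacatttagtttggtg
POLE2: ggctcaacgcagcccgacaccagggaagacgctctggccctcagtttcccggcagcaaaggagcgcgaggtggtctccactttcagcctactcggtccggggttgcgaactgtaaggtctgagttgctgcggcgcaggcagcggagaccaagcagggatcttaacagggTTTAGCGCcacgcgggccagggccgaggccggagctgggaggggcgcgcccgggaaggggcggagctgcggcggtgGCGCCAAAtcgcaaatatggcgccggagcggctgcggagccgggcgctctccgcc
CHR letters occurred in 34 of 39 mitosis promoters (87.2%), in 3 of 34 replication promoters (8.82%) and in 15.7% of the promoters of all tested genes. The E2F letters occurred in 13 replication promoters (38.2%), 1 mitosis promoter (2.56%) and 3.23% of all. CCAAT boxes were found in 74.4% of mitosis promoters, 55.9% of replication promoters and 37.1% of all. These shares describe the lists as written, and the lists were not chosen for these letters.

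**Figure D2:**
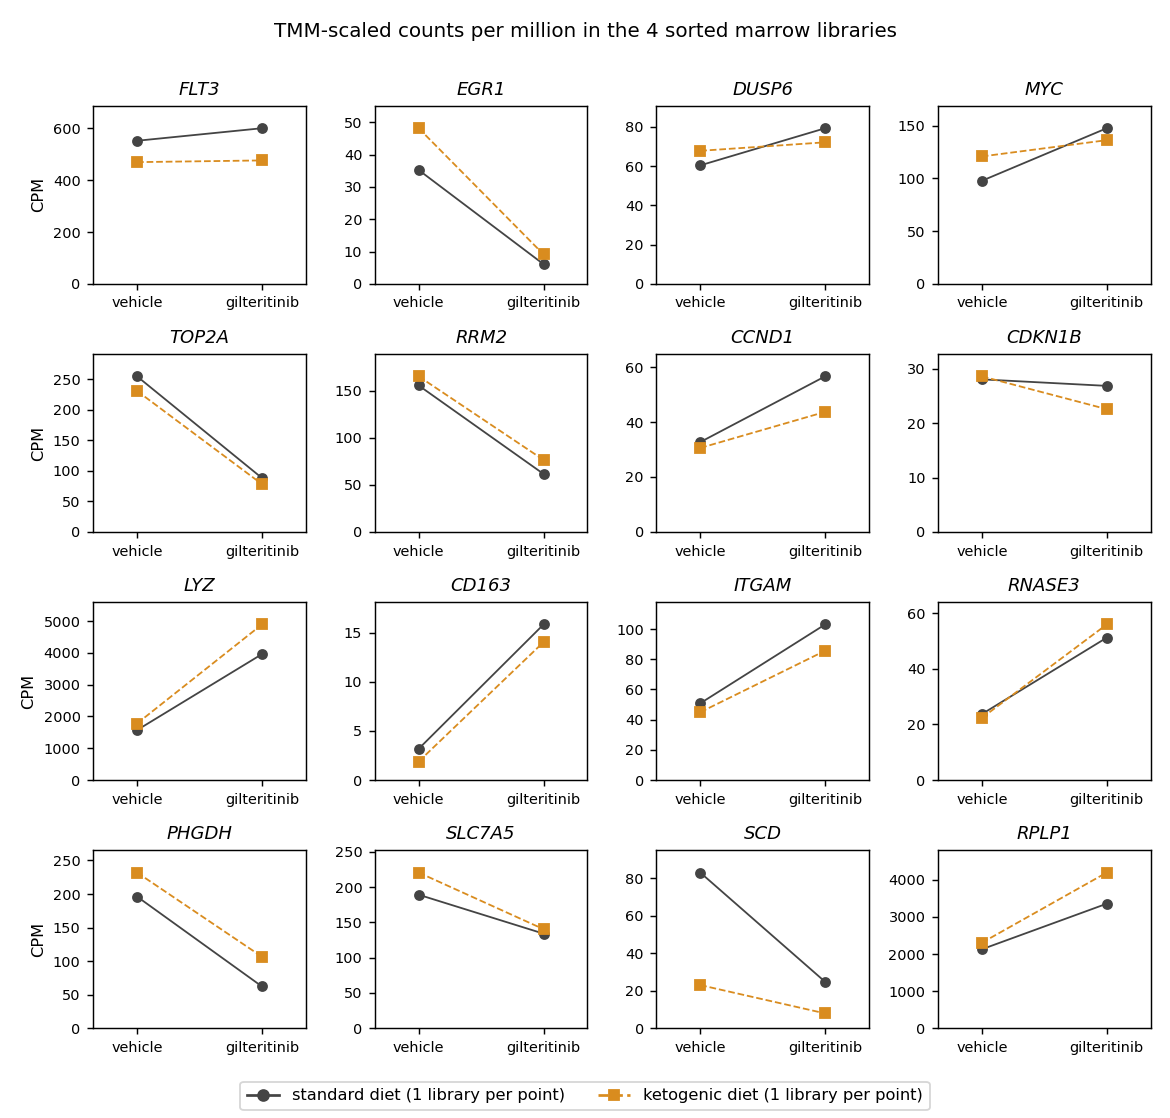
Each panel gives the TMM-scaled CPM of 1 gene in the 4 marrow libraries on a linear axis from 0, with lines joining the vehicle and gilteritinib libraries of the same diet. EGR1, TOP2A, RRM2 and PHGDH fall and LYZ, CD163, ITGAM and RNASE3 rise under both diets, while FLT3 and DUSP6 change little, and SCD is low with either the drug or the ketogenic diet.

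Monocyte products rose as the cell cycle fell, with 19 of 24 tested genes higher (10.5% of all genes), 0 lower and a median of 0.92. Lysozyme (LYZ, ENSG00000090382, chromosome 12, 69348341 to 69354234, plus strand), the bactericidal enzyme that monocytes secrete, went from 1570.5 and 1778 CPM to 3959.8 and 4894 CPM. It rose by 1.40 log2 units (SE 0.12, edgeR adjusted p = 7.61e-13). The gelatinase MMP9 went from 1.07 and 0.882 CPM to 10.96 and 6.35 CPM and rose by 3.19 log2 units (SE 0.29, edgeR adjusted p = 6.09e-12). The myeloid hexokinase HK3 rose by 1.61 log2 units (SE 0.18, edgeR adjusted p = 1.49e-09), and the lectin LGALS3, a product of macrophages, rose by 1.31 log2 units (SE 0.12, edgeR adjusted p = 8.17e-12). FCN1, a secreted lectin that marks classical monocytes, was nearly absent with vehicle (0.421 and 0.118 CPM) and reached 5.08 and 7.86 CPM with gilteritinib, a rise of 4.23 log2 units (SE 0.38, edgeR adjusted p = 5.68e-12). S100A8 and S100A9, the calprotectin subunits abundant in mature monocytes, rose by 2.09 and 1.84 log2 units but reached no more than 2.45 CPM in any library. LYZ, MMP9, HK3, LGALS3 and FCN1 kept their calls with each library left out, and the single pairs called 14 (standard diet) and 17 (ketogenic diet) of the list. When either ketogenic library was dropped, S100A8 and S100A9 lost their calls (adjusted p = 0.0614 to 0.239).

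Lysosomal and adaptor genes of phagocytes were among these products. Cathepsin D (CTSD) went from 56.7 and 59.9 CPM to 105 and 133 CPM and rose by 1.01 log2 units (SE 0.11, edgeR adjusted p = 1.44e-09). The signalling adaptors TYROBP and FCER1G, which carry the activating motif for many myeloid receptors, rose by 1.07 and 1.19 log2 units. The tissue macrophage markers C1QB, C1QC, TIMD4 and VSIG4 had 0 counts in all 4 libraries, as given above. CTSB (-0.16) and CTSS (0.16) had log2 fold changes that were not called, and the oxidase subunit CYBB was too low to test.

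Surface receptors of monocytes and macrophages rose in 14 of 26 tested cases and fell in 2, at a median of 0.39. CD163, the haemoglobin scavenger receptor of macrophages, went from 3.17 and 1.88 CPM to 15.8 and 14.05 CPM and rose by 2.53 log2 units (SE 0.22, edgeR adjusted p = 1.5e-12), the largest rise in the list. The platelet-activating factor receptor PTAFR rose by 1.23 log2 units (SE 0.14, edgeR adjusted p = 8.94e-10), and the inhibitory receptor LILRB3 rose by 1.19 log2 units (SE 0.26, edgeR adjusted p = 0.000675) with its highest level in the gilteritinib library of the ketogenic diet. FCGRT, the neonatal Fc receptor, rose by 0.85 log2 units (SE 0.11, edgeR adjusted p = 4.07e-08). MSR1, a class A scavenger receptor of macrophages, went from 1.38 and 2.64 CPM to 0.330 and 0.624 CPM and fell by 2.06 log2 units (SE 0.48, edgeR adjusted p = 0.00115), and the chemokine receptor CCR1 fell by 1.03 log2 units (SE 0.13, edgeR adjusted p = 5.16e-08). CD14, the lipopolysaccharide co-receptor that defines monocytes, had at most 4 counts in a library and was not tested, and CD68 and MRC1 were also too low to test. Whether such low counts reflect the cells or the counting was not tested. Without either ketogenic library, the standard-diet pair alone gave no call for LILRB3 and MSR1 (adjusted p = 0.0604 to 0.214).

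Granule proteins rose with the monocyte genes, 10 of 12 tested, at a median of 0.79. The eosinophil ribonucleases RNASE2 and RNASE3 went from 497 and 515 CPM to 1034 and 932 CPM and from 23.7 and 22.3 CPM to 51.2 and 56.0 CPM with no overlap between the groups. RNASE2 rose by 0.96 log2 units (SE 0.11, edgeR adjusted p = 3.39e-09) and RNASE3 rose by 1.21 log2 units (SE 0.13, edgeR adjusted p = 2.59e-10), although these paralogs share sequence and their counts may be split between them. The neutrophil protein BPI, which permeabilises bacteria, rose by 1.20 log2 units (SE 0.15, edgeR adjusted p = 1.7e-08). Eosinophil peroxidase (EPX) stood at 18.1 and 23.8 CPM with vehicle and 22.4 and 69.2 CPM with gilteritinib, so only the ketogenic treated library stood apart, and EPX rose by 0.95 log2 units (SE 0.25, edgeR adjusted p = 0.0343). Myeloperoxidase (MPO) was also highest in the ketogenic treated library, at 28.8 and 39.2 CPM and then 43.2 and 93.8 CPM, and it rose by 0.93 log2 units (SE 0.13, edgeR adjusted p = 9.16e-07). Serglycin (SRGN), the proteoglycan that packs granules, had the largest gain in CPM among called genes, from 5426 and 5308 CPM to 9354 and 8249 CPM, and it rose by 0.71 log2 units (SE 0.12, edgeR adjusted p = 8.5e-06). The call of EPX was lost in the standard-diet pair alone, without either ketogenic library (adjusted p = 0.497 to 0.509). The ketogenic-diet pair alone called 11 of the list and the standard-diet pair alone 6.

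Transcription factors of the myeloid lineage rose in 10 of 17 tested cases and fell in none, at a median of 0.42. With library totals as the scaling the counts were 6 higher and 3 lower. Of the C/EBP factors, which drive granulocyte and monocyte genes, CEBPE, CEBPD and CEBPB had the largest rises of the list. CEBPE, at 0.478 and 0.705 CPM with vehicle and 0.594 and 2.86 CPM with gilteritinib, rose by 1.38 log2 units (SE 0.46, edgeR adjusted p = 0.0282), and only the ketogenic treated library stood apart. CEBPD went from 12.3 and 13.3 CPM to 24.8 and 33.3 CPM and rose by 1.16 log2 units (SE 0.15, edgeR adjusted p = 3.21e-08), CEBPB rose by 0.997 log2 units (SE 0.16, edgeR adjusted p = 4.39e-06), and CEBPA, at the highest level of them, went from 297 and 338 CPM to 500.4 and 473 CPM and rose by 0.62 log2 units (SE 0.11, edgeR adjusted p = 1.99e-05). NFE2 rose by 0.77 log2 units (SE 0.12, edgeR adjusted p = 1.32e-06). The standard-diet pair alone called 7 of the list higher and 0 lower, the ketogenic-diet pair alone 6 and 0. The monocyte factor IRF8 and the repressor GFI1 had log2 fold changes of -0.22 (SE 0.11, edgeR adjusted p = 0.142) and 0.21 (SE 0.12, edgeR adjusted p = 0.211). CEBPA, CEBPB, CEBPD and NFE2 kept their calls with each library left out. CEBPE was not called when either ketogenic library was left out (adjusted p = 0.898).

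HOX cluster genes and their partner MEIS1 are known to hold MLL-rearranged cells in a stem-like state. HOXA9, a direct target of MLL fusions, stood at 26.9 and 24.3 CPM with vehicle and 31.8 and 26.7 CPM with gilteritinib, a log2 fold change of 0.19 (SE 0.13, edgeR adjusted p = 0.331), and its partner MEIS1 had one of -0.31 (SE 0.14, edgeR adjusted p = 0.0989). In the list, 2 of 19 rose and 2 fell (10.5% each way, near the 10.5% and 9.82% of all genes), at a median of -0.019. Higher and lower calls in the list numbered 1 and 0 in the standard-diet pair alone, 1 and 0 in the ketogenic-diet pair alone and 2 and 7 with library totals as the scaling. GATA2, a factor of stem cells and mast cells, went from 27.3 and 30.4 CPM to 43.4 and 61.4 CPM and rose by 0.84 log2 units (SE 0.13, edgeR adjusted p = 1.42e-06), and HOXA3 rose by 0.87 log2 units (SE 0.27, edgeR adjusted p = 0.0178) from 2.36 and 2.76 CPM. RUNX2 and MEF2C fell by 0.33 and 0.30 log2 units. Neither diet pair alone called HOXA3, RUNX2 and MEF2C, whichever library was left out (adjusted p = 0.0515 to 0.82).

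Antigens that antibodies or engineered T cells target in myeloid leukaemia rose in 7 (36.8%) and fell in 3 (15.8%) of 19 tested cases, at a median of 0.19. Of all genes 10.5% rose and 9.82% fell. In the standard-diet pair alone 5 of these antigens were called higher and 0 lower, and in the ketogenic-diet pair alone 3 and 2. CD33, the target of gemtuzumab, stood at 58.7 and 54.5 CPM with vehicle and 78.9 and 71.6 CPM with gilteritinib, with no overlap, and it rose by 0.41 log2 units (SE 0.11, edgeR adjusted p = 0.00674). CD70, a ligand of the TNF family, went from 24.3 and 22.4 CPM to 38.2 and 40.8 CPM and rose by 0.75 log2 units (SE 0.13, edgeR adjusted p = 1.94e-05). CD48, the ligand of CD244, rose by 1.49 log2 units (SE 0.23, edgeR adjusted p = 2.81e-06) from 3.29 and 2.64 CPM, and the costimulatory ligand CD86 rose by 0.65 log2 units (SE 0.14, edgeR adjusted p = 0.00042). The sorted antigen itself, CD45 (PTPRC), had a log2 fold change of -0.19 (SE 0.11, edgeR adjusted p = 0.214), while the log2 fold changes of CD38 (-0.44), IL1RAP (-0.43) and ADGRE2 (-0.41) were called lower. When either ketogenic library was dropped, IL1RAP and ADGRE2 lost their calls (adjusted p = 0.337 to 0.891). CD86 was not called without either standard-diet library, from the ketogenic-diet pair alone (adjusted p = 0.0633 to 0.0663). CD33 and CD38 lost their calls with any 1 of the 4 libraries left out (adjusted p = 0.0997 to 0.539).

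Adhesion and homing receptors rose in 8 (42.1%) and fell in 2 (10.5%) of 19 tested cases, against 10.5% and 9.82% of all genes, at a median of 0.20. Taken alone, the standard-diet pair called 7 higher and 0 lower in this list, and the ketogenic-diet pair 7 and 3. ITGAM, the alpha chain of the complement receptor and a maturation marker, went from 50.8 and 44.9 CPM to 103 and 85.6 CPM. Both treated libraries were well above the vehicle libraries, and ITGAM rose by 0.98 log2 units (SE 0.11, edgeR adjusted p = 4.55e-09). ICAM3 rose by 0.89 log2 units (SE 0.11, edgeR adjusted p = 6.46e-09), ITGAX rose by 0.76 log2 units (SE 0.12, edgeR adjusted p = 3.56e-06) and the hyaluronan receptor CD44 rose by 0.75 log2 units (SE 0.11, edgeR adjusted p = 3.02e-07). CXCR4, which holds blasts in the marrow, had a log2 fold change of 0.20 (SE 0.11, edgeR adjusted p = 0.179), and ITGA6 and ITGB1, a laminin-binding pair, each fell by 0.56 log2 units. ITGAM, ICAM3, ITGAX and CD44 kept their calls with each library left out. Without either ketogenic library, the standard-diet pair alone gave no call for ITGA6 and ITGB1 (adjusted p = 0.25 to 0.333).

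Of the chemokines, cytokines and their receptors, 6 of 21 rose and 2 fell, at a median of 0.14. The shares were 28.6% and 9.52%, against 10.5% and 9.82% of all genes. CCL5, a chemokine for T cells and monocytes, went from 97.8 and 80.5 CPM to 191 and 225 CPM and rose by 1.22 log2 units (SE 0.11, edgeR adjusted p = 2.63e-11). CCL23, a myeloid chemokine, had the largest rise of all genes at or above a mean log2 CPM of 3, from 6.12 and 4.82 CPM to 19.1 and 21.3 CPM, and it rose by 1.86 log2 units (SE 0.18, edgeR adjusted p = 2.93e-11). CXCL10 rose by 1.79 log2 units (SE 0.28, edgeR adjusted p = 4e-06) from 1.46 and 2.00 CPM, and CXCL16 rose by 1.11 log2 units (SE 0.24, edgeR adjusted p = 0.000528). The call of CXCL16 was lost in the standard-diet pair alone, without either ketogenic library (adjusted p = 0.207 to 0.216). CXCL10 is an interferon target, yet interferon-stimulated genes as a list showed 2 higher and 3 lower of 32 at a median of -0.23. Those called lower were GBP5 (-0.57), USP18 (-0.54) and EIF2AK2 (-0.36), and those called higher were BST2 (0.34) and ISG15 (0.42), in log2 units. Log2 fold changes in the list ran from -0.89 to 0.90, and these extremes were not called. Of the interferon list 6.25% rose and 9.38% fell, below the 10.5% and 9.82% of all genes. No interferon-stimulated gene was called in the standard-diet pair alone, and the ketogenic-diet pair alone called 0 higher and 4 lower. GBP5 and USP18 were not called when either ketogenic library was left out (adjusted p = 0.656 to 0.746). No single diet pair gave a call for EIF2AK2, BST2 and ISG15, whichever library was left out (adjusted p = 0.133 to 0.594).

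Of 11 class II antigen presentation genes 5 rose and none fell, at a median of 0.31. The standard-diet pair alone called 3 of the list higher and 0 lower, the ketogenic-diet pair alone 1 and 0. The invariant chain CD74 went from 774 and 785 CPM to 1177 and 1020.3 CPM, with no overlap, and rose by 0.49 log2 units (SE 0.11, edgeR adjusted p = 0.000815). HLA-DMA, which loads peptides, rose by 0.74 log2 units (SE 0.16, edgeR adjusted p = 0.00061), and HLA-DQB1 and HLA-DRB1 rose by 0.58 and 0.53 log2 units, while the class II regulator CIITA had a log2 fold change of -0.42 (SE 0.21, edgeR adjusted p = 0.151). In class I, 3 of 17 rose (17.6%, against 10.5% of all genes) at a median of 0.038 (library totals -0.11), among them HLA-B (0.36) and B2M (0.32) by log2 fold change. Higher and lower calls in the list numbered 0 and 0 in the standard-diet pair alone, 1 and 0 in the ketogenic-diet pair alone and 1 and 1 with library totals as the scaling. HLA genes differ between individuals and share sequence, so reads may be split between them. When either ketogenic library was dropped, HLA-DMA lost its call (adjusted p = 0.153 to 0.16). Leaving out either standard-diet library ended the calls of CD74, HLA-DQB1 and HLA-DRB1 (adjusted p = 0.0953 to 0.15 in the ketogenic-diet pair alone). Neither diet pair alone called HLA-B and B2M, whichever library was left out (adjusted p = 0.0747 to 0.452).

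Serine synthesis and folate one-carbon enzymes fell in 9 of 11 tested cases and rose in none, at a median of -0.43. PHGDH, which commits glycolytic carbon to serine, went from 196 and 232 CPM to 62.1 and 106 CPM, and PSAT1, the next enzyme, from 184 and 206 CPM to 81.8 and 94.1 CPM. For both genes each treated library lay below each vehicle library. PHGDH fell by 1.39 log2 units (SE 0.12, edgeR adjusted p = 1.5e-12) and PSAT1 fell by 1.15 log2 units (SE 0.11, edgeR adjusted p = 1.57e-11), and PSPH, the last step, fell by 0.50 log2 units (SE 0.12, edgeR adjusted p = 0.00168). The mitochondrial folate dehydrogenase ALDH1L2 had the steepest fall of the pathway, from 39.9 and 48.3 CPM to 10.6 and 16.3 CPM, and it fell by 1.73 log2 units (SE 0.14, edgeR adjusted p = 7.61e-13). PHGDH, PSAT1 and ALDH1L2 kept their calls with each library left out. PSPH lost its call with any 1 of the 4 libraries left out (adjusted p = 0.0613 to 0.115). From the standard-diet pair alone 3 members were called, and from the ketogenic-diet pair alone 5.

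Several of those enzymes are known targets of ATF4, the factor of the integrated stress response. ATF4 itself stood at 455 and 466 CPM with vehicle and 355 and 482 CPM with gilteritinib, which overlap, and its log2 fold change was -0.15 (SE 0.11, edgeR adjusted p = 0.35). Of 14 stress response genes 7 fell and 1 rose, at a median of -0.37. In the standard-diet pair alone 1 of them were called higher and 3 lower, and in the ketogenic-diet pair alone 1 and 5. STC2, a secreted glycoprotein, went from 4.16 and 5.29 CPM to 0.858 and 1.04 CPM and fell by 2.31 log2 units (SE 0.34, edgeR adjusted p = 9.16e-07). GPT2, a mitochondrial transaminase, fell by 0.74 log2 units (SE 0.12, edgeR adjusted p = 3.19e-06), and the pseudokinase TRIB3 fell by 0.59 log2 units (SE 0.15, edgeR adjusted p = 0.00417). CHAC1, which degrades glutathione, measured 2.47 and 4.17 CPM with vehicle and 0.264 and 1.30 CPM with gilteritinib, and it fell by 2.08 log2 units (SE 0.39, edgeR adjusted p = 6.13e-05). The exception was PPP1R15A, the phosphatase subunit that ends the response, which went from 47.8 and 49.5 CPM to 97.2 and 86.8 CPM and rose by 0.92 log2 units (SE 0.11, edgeR adjusted p = 2.52e-08). ASNS, a usual ATF4 target, had at most 4 counts in a library and was not tested, and whether this reflects the cells or the counting is not known. Without either ketogenic library, the standard-diet pair alone gave no call for TRIB3 (adjusted p = 0.451 to 0.462).

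Amino acid transporters fell in 9 of 13 tested cases and rose in none, at a median of -0.47. SLC7A5, the leucine transporter that feeds mTOR, went from 189 and 221 CPM to 134 and 140.3 CPM and fell by 0.58 log2 units (SE 0.11, edgeR adjusted p = 5.33e-05). The glutamine carrier SLC38A2 fell by 0.56 log2 units (SE 0.11, edgeR adjusted p = 0.000179) and the arginine carrier SLC7A1 fell by 0.51 log2 units (SE 0.12, edgeR adjusted p = 0.00102). The glycine transporter SLC6A9 fell by 2.36 log2 units and the cystine transporter SLC7A11 fell by 2.33, the steepest falls of the list, from no more than 6.58 CPM. Taken alone, the standard-diet pair called 0 higher and 3 lower in this list, and the ketogenic-diet pair 0 and 6. Transfer RNA synthetases fell in 8 of 20 cases at a median of -0.27, led by AARS1, which went from 227 and 233 CPM to 142 and 149 CPM and fell by 0.66 log2 units (SE 0.11, edgeR adjusted p = 4.36e-06). WARS1, GARS1 and IARS1 fell by 0.55, 0.53 and 0.50 log2 units. With a library left out, this list held 0 higher and 3 lower calls (standard-diet pair alone) or 0 and 5 (ketogenic-diet pair alone). The calls of SLC7A5, SLC7A1 and IARS1 were lost in the standard-diet pair alone, without either ketogenic library (adjusted p = 0.065 to 0.358). In the ketogenic-diet pair alone, without either standard-diet library, SLC7A11 and GARS1 were no longer called (adjusted p = 0.0505 to 0.0819).

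The promoter window of SLC7A1 (GRCh38.p14, chr13:29595639-29595938, minus strand) is shown as a named member whose letters hold, as do those of CHAC1, the composite element that C/EBP and ATF factors bind together (TGATGNAAN, both strands, in capitals). That element occurred in 3 of 12 amino acid transporter promoters (25.0%), 2 of 13 stress response promoters (15.4%), 1 of 7 serine pathway promoters and 1.74% of the promoters of all tested genes.
SLC7A1: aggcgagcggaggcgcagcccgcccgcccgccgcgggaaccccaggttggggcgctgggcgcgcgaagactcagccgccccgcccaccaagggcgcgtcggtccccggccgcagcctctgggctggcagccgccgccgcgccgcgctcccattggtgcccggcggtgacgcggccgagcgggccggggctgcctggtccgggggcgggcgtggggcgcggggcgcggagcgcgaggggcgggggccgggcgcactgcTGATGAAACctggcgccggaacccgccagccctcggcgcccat

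Of 24 cholesterol synthesis and uptake genes 13 fell and none rose, at a median of -0.52. ACAT2, the thiolase at the entry of the pathway, went from 105 and 80.0 CPM to 53.9 and 49.2 CPM, with no overlap, and fell by 0.83 log2 units (SE 0.12, edgeR adjusted p = 2.47e-07). SQLE, which makes squalene epoxide, went from 13.6 and 10.3 CPM to 9.44 and 4.32 CPM and fell by 0.84 log2 units (SE 0.20, edgeR adjusted p = 0.00141). ACAT2 kept its call with each library left out. SQLE was not called when either ketogenic library was left out (adjusted p = 0.262 to 0.267). The standard-diet pair alone called 4 members and the ketogenic-diet pair alone 9.

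The desaturase SCD, which makes oleic acid, stood at 83.0 and 23.0 CPM with vehicle and 24.7 and 7.86 CPM with gilteritinib. The vehicle library of the ketogenic diet and the gilteritinib library of the standard diet held near-equal levels, the groups overlap for that reason, and within each diet the treated library was lower. SCD fell by 1.67 log2 units (SE 0.14, edgeR adjusted p = 7.61e-13) with diet as a covariate, and it kept its call with each library left out. In the rest of the 17 fatty acid synthesis genes, SREBF1 (-0.56), ACSL3 (-0.46) and ELOVL5 (-0.35) were called lower and FASN (-0.21), ACACA (-0.22) and ACLY (-0.14) were not called, by log2 fold change, and the list median was -0.26. Most fatty acid oxidation genes were not called. The 3 of 20 called lower (15.0%, against 9.82% of all genes) were HADH (-0.62), ETFDH (-0.53) and PPARD (-0.38). The list median was -0.15, and CPT1A had a log2 fold change of 0.17 (SE 0.12, edgeR adjusted p = 0.356). For fatty acid synthesis, higher and lower calls were 0 and 2 in the standard-diet pair alone, 0 and 1 in the ketogenic-diet pair alone, and 0 and 8 with library totals as the scaling. For fatty acid oxidation, higher and lower calls were 0 and 1 in the standard-diet pair alone, 0 and 2 in the ketogenic-diet pair alone, and 0 and 7 with library totals as the scaling. Of 8 genes of the LXR sterol efflux pathway 2 rose (25.0%, against 10.5% of all genes). The cholesterol exporter ABCA1 rose by 1.39 log2 units (SE 0.30, edgeR adjusted p = 0.000493), and MYLIP rose by 0.79 log2 units (SE 0.15, edgeR adjusted p = 6.01e-05). When either ketogenic library was dropped, ETFDH lost its call (adjusted p = 0.532 to 0.541). SREBF1 was not called without either standard-diet library, from the ketogenic-diet pair alone (adjusted p = 0.352 to 0.359). No single diet pair gave a call for ACSL3, ELOVL5 and PPARD, whichever library was left out (adjusted p = 0.0623 to 0.591).

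Most glycolysis genes were not called, with 4 of 26 higher (15.4%) and 1 lower (3.85%), against 10.5% and 9.82% of all genes, at a median of -0.0059. HK2, the inducible hexokinase, had a log2 fold change of 0.27 (SE 0.13, edgeR adjusted p = 0.138), and its larger gap ran between the diets (38.1 and 26.7 CPM with vehicle, 52.0 and 27.8 CPM with gilteritinib). TXNIP, which restrains glucose uptake, rose by 0.41 log2 units (SE 0.11, edgeR adjusted p = 0.00456), LDHB rose by 0.48 log2 units (SE 0.15, edgeR adjusted p = 0.0165) and PFKL fell by 0.31 log2 units (SE 0.11, edgeR adjusted p = 0.0361). In the TCA cycle 7 of 24 genes fell (29.2%) and none rose at a median of -0.13, with pyruvate carboxylase (PC) and IDH2 falling by 0.65 and 0.53 log2 units. IDH2 went from 261 and 263 CPM to 165 and 200.4 CPM, with no overlap. OGDH and SUCLG2, of the middle of the cycle, fell by 0.38 and 0.37 log2 units. For glycolysis, higher and lower calls were 2 and 0 in the standard-diet pair alone, 2 and 1 in the ketogenic-diet pair alone, and 1 and 3 with library totals as the scaling. For the TCA cycle, higher and lower calls were 0 and 1 in the standard-diet pair alone, 0 and 2 in the ketogenic-diet pair alone, and 0 and 10 with library totals as the scaling. Without either ketogenic library, the standard-diet pair alone gave no call for LDHB, PC and OGDH (adjusted p = 0.401 to 0.867). Leaving out either standard-diet library ended the calls of TXNIP and IDH2 (adjusted p = 0.125 to 0.446 in the ketogenic-diet pair alone). Neither diet pair alone called PFKL and SUCLG2, whichever library was left out (adjusted p = 0.0897 to 0.686).

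Of 78 tested genes for cytosolic ribosomal proteins 68 rose and none fell, at a median of 0.45, which was 0.30 with 48 calls when library totals were the scaling. RPLP1, a stalk protein, went from 2128 and 2304 CPM to 3359 and 4199.7 CPM and rose by 0.76 log2 units (SE 0.11, edgeR adjusted p = 1.37e-06). RPL37 rose by 0.75 log2 units (SE 0.12, edgeR adjusted p = 3.56e-06) and RPL26 rose by 0.83 log2 units (SE 0.12, edgeR adjusted p = 2e-06), RPS15A rose by 0.66 log2 units (SE 0.11, edgeR adjusted p = 9.96e-06), and RPS24, RPL13, RPL8 and RPS18, which gained most in CPM, rose by 0.62, 0.62, 0.49 and 0.44 log2 units. In each of these the ketogenic treated library was the highest of the 4. The list median of the log2 ratios was 0.33 under the standard and 0.56 under the ketogenic diet, and the standard-diet pair alone called 1 member (RPLP1) against 51 in the ketogenic-diet pair alone. RPS10 and RPL17 were counted at under 5 CPM, far below the other members, and both overlap other annotated genes, so their counts are uncertain. The calls of RPS15A, RPL37, RPL26, RPS24, RPL13 and RPL8 were lost in the standard-diet pair alone, without either ketogenic library (adjusted p = 0.0503 to 0.279). RPS18 lost its call with any 1 of the 4 libraries left out (adjusted p = 0.0654 to 0.293).

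Nuclear-encoded subunits of oxidative phosphorylation rose in 17 of 73 cases (23.3%) and fell in 1 (1.37%), against 10.5% and 9.82% of all genes, at a median of 0.16. With library totals as the scaling they split evenly, 6 higher and 6 lower, so no direction is given. The largest rises were those of NDUFA11 (0.69), NDUFB8 (0.53), ATP5MG (0.51) and ATP5F1E (0.48), in log2 units, and none of the list was called in the standard-diet pair alone. Ribosome biogenesis factors, led by RRP9 (0.42) and NOP16 (0.39) upward and UTP20 (-0.39) and WDR43 (-0.38) downward in log2 units, showed 5 higher and 2 lower of 25 at a median of 0.084, or -0.064 with library totals as the scaling. MYC, a known driver of ribosome production, stood at 97.6 and 121 CPM with vehicle and 147 and 136 CPM with gilteritinib and rose by 0.39 log2 units (SE 0.11, edgeR adjusted p = 0.00958). The MYC antagonists MXI1 and MXD4 rose by 0.66 and 0.50 log2 units, and 4 of 11 genes of the network rose in all, among them MLXIP by 0.38. With library totals as the scaling MYC was no longer called. For ribosome biogenesis, higher and lower calls were 1 and 0 in the standard-diet pair alone, 0 and 2 in the ketogenic-diet pair alone, and 0 and 2 with library totals as the scaling. For the MYC network, higher and lower calls were 2 and 0 in the standard-diet pair alone, 0 and 0 in the ketogenic-diet pair alone, and 2 and 1 with library totals as the scaling. ATP5F1E, NDUFA11, NDUFB8, ATP5MG, UTP20 and WDR43 were not called when either ketogenic library was left out (adjusted p = 0.306 to 0.806). In the ketogenic-diet pair alone, without either standard-diet library, MYC and MXI1 were no longer called (adjusted p = 0.0584 to 0.586). No single diet pair gave a call for RRP9, NOP16, MXD4 and MLXIP, whichever library was left out (adjusted p = 0.0846 to 0.504).

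BCL2, the target of venetoclax, stood at 102 and 105 CPM with vehicle and 106 and 84.9 CPM with gilteritinib, a log2 fold change of -0.12 (SE 0.11, edgeR adjusted p = 0.504), and the BH3-only killer BCL2L11 had one of -0.19 (SE 0.11, edgeR adjusted p = 0.232). PMAIP1, a BH3-only protein that binds MCL1, went from 26.6 and 22.6 CPM to 17.95 and 12.6 CPM and fell by 0.69 log2 units (SE 0.15, edgeR adjusted p = 0.000432). Of 14 family members 1 rose (BAX, 0.36 log2 units) and 2 fell (PMAIP1 and BAK1), and of 17 p53 targets 1 rose (BAX) and 2 fell (DDB2 by 0.53 and SESN2 by 0.53 log2 units), at medians of -0.0031 and -0.19. Higher and lower shares were 7.14% and 14.3% in the family and 5.88% and 11.8% for p53 targets. Of all genes 10.5% were higher and 9.82% lower. For the BCL2 family, higher and lower calls were 0 and 0 in the standard-diet pair alone, 0 and 1 in the ketogenic-diet pair alone, and 0 and 3 with library totals as the scaling. For p53 targets, higher and lower calls were 0 and 0 or 1 in the standard-diet pair alone, 0 and 0 in the ketogenic-diet pair alone, and 0 and 5 with library totals as the scaling. When either ketogenic library was dropped, PMAIP1 lost its call (adjusted p = 0.113 to 0.119). Neither diet pair alone called BAX, BAK1 and SESN2, whichever library was left out (adjusted p = 0.0648 to 0.582). DDB2 was called in 1 of the 4 fits with a library left out, that without gilteritinib on the ketogenic diet (adjusted p = 0.0492), and not in the others (adjusted p = 0.0517 to 0.261).

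Of 20 NRF2 targets, glutathione and ferritin genes 6 rose and 2 fell (background 10.5% and 9.82% of all genes). The largest change of the list was a fall, that of the cystine transporter SLC7A11. Its log2 fold change was -2.33 (SE 0.45, edgeR adjusted p = 0.000128), from 2.98 and 2.41 CPM with vehicle. With a library left out, this list held 3 higher and 1 lower calls (standard-diet pair alone) or 3 and 0 (ketogenic-diet pair alone), and library totals as the scaling gave 3 and 4. The ferritin light chain FTL went from 1273 and 1217 CPM to 1903 and 2206 CPM and rose by 0.72 log2 units (SE 0.11, edgeR adjusted p = 3.39e-06), the heavy chain FTH1 rose by 0.58 log2 units (SE 0.11, edgeR adjusted p = 6.08e-05), and the peroxidase PRDX1 rose by 0.75 log2 units (SE 0.11, edgeR adjusted p = 7.28e-07). All 3 kept their calls with each library left out, and the haem oxygenase HMOX1 rose by 0.78 log2 units (SE 0.28, edgeR adjusted p = 0.0398). Lysosomal genes rose in 8 of 28 cases (28.6%), led by CD63, which rose by 0.60 log2 units (SE 0.11, edgeR adjusted p = 2.47e-05). MITF, CTSA and PSAP rose by 0.59, 0.51 and 0.44 log2 units. The median of the lysosomal genes was 0.036, or -0.11 with library totals as the scaling. In the standard-diet pair alone 2 of them were called higher and 0 lower, and in the ketogenic-diet pair alone 1 and 0, and library totals as the scaling gave 3 and 3. Endoplasmic reticulum chaperones (1 higher, SDF2L1, and 1 lower, HERPUD1, of 18) and hypoxia genes (1 higher, NDRG1, and 1 lower, KDM3A, of 11) were mostly not called. Each way the share was 5.56% for the chaperones and 9.09% for the hypoxia genes, below that of all genes. CTSA was not called without either standard-diet library, from the ketogenic-diet pair alone (adjusted p = 0.0751 to 0.0765). HMOX1, MITF, PSAP, SDF2L1, HERPUD1, NDRG1 and KDM3A lost their calls with any 1 of the 4 libraries left out (adjusted p = 0.0647 to 0.358).

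Of 14 histone genes 4 rose (28.6%) and 1 fell (7.14%), against 10.5% and 9.82% of all genes. H2BC12 went from 11.97 and 11.3 CPM to 34.3 and 31.0 CPM and rose by 1.49 log2 units (SE 0.14, edgeR adjusted p = 4.07e-11), and the linker histone H1-2 rose by 1.40 log2 units (SE 0.20, edgeR adjusted p = 7.02e-07). H2BC5 and H2AC6 rose by 1.25 and 1.27 log2 units, and the replication-independent variant H2AZ1, at 549 and 569 CPM and then 311 and 417 CPM, fell by 0.63 log2 units (SE 0.11, edgeR adjusted p = 2.05e-05). Clustered histone genes are near-identical copies and most of their transcripts lack a poly(A) tail, so messenger RNA libraries measure a small and uncertain part of them. Other abundant proliferation-linked genes lost the most CPM: the tubulins TUBB and TUBA1B went from 2102 and 2205 CPM to 1148 and 1310.2 CPM and from 1725 and 1681 CPM to 910.3 and 1076 CPM, and TUBB fell by 0.81 log2 units (SE 0.11, edgeR adjusted p = 2.33e-07). HMGN2, HMGB1, NUCKS1 and TMPO, all chromatin or nuclear lamina proteins, fell by 0.70, 0.45, 0.68 and 0.83 log2 units. Leaving out either standard-diet library ended the calls of H2AZ1, HMGN2 and HMGB1 (adjusted p = 0.0521 to 0.303 in the ketogenic-diet pair alone). H2AC6 lost its call without gilteritinib on the ketogenic diet (adjusted p = 0.0567).

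The remaining genes with the largest changes belong to no list. SMYD3, a lysine methyltransferase, went from 56.2 and 49.5 CPM to 134 and 138 CPM and rose by 1.37 log2 units (SE 0.11, edgeR adjusted p = 7.61e-13). BEX1, a small adaptor protein first described in brain, rose by 1.39 log2 units (SE 0.12, edgeR adjusted p = 1.5e-12), and the scaffold protein HOMER3 rose by 1.33 log2 units (SE 0.12, edgeR adjusted p = 3.51e-12). GNLY, a granule protein of lymphocytes, went from 7.53 and 11.6 CPM to 22.5 and 30.6 CPM and rose by 1.49 log2 units (SE 0.15, edgeR adjusted p = 1.95e-10). NKG7 was higher in the gilteritinib libraries as well. The other T and NK markers were near absent, with CD3G and KLRD1 at 0 and a sum without NKG7 of 0.675 to 2.38 CPM. The source of the GNLY and NKG7 transcripts was not tested. ADA2, an adenosine deaminase secreted by monocytes, rose by 1.34 log2 units, TMC8 by 1.37, the methionine sulfoxide reductase MSRB3 by 1.33 and MS4A4E by 1.32. PTP4A3, a phosphatase of the PRL family that is high in FLT3-mutated leukaemia, went from 157 and 134 CPM to 59.0 and 42.1 CPM and fell by 1.54 log2 units (SE 0.11, edgeR adjusted p = 2.85e-14). ALDH1A3, which makes retinoic acid, fell by 0.75 log2 units (SE 0.12, edgeR adjusted p = 4.88e-06), and TPT1, a translation-linked protein, rose by 0.49 log2 units (SE 0.12, edgeR adjusted p = 0.00168). Without either ketogenic library, the standard-diet pair alone gave no call for ALDH1A3 and TPT1 (adjusted p = 0.107 to 0.208). All the other genes of this paragraph with a log2 change kept their calls with each library left out.

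**Figure D3:**
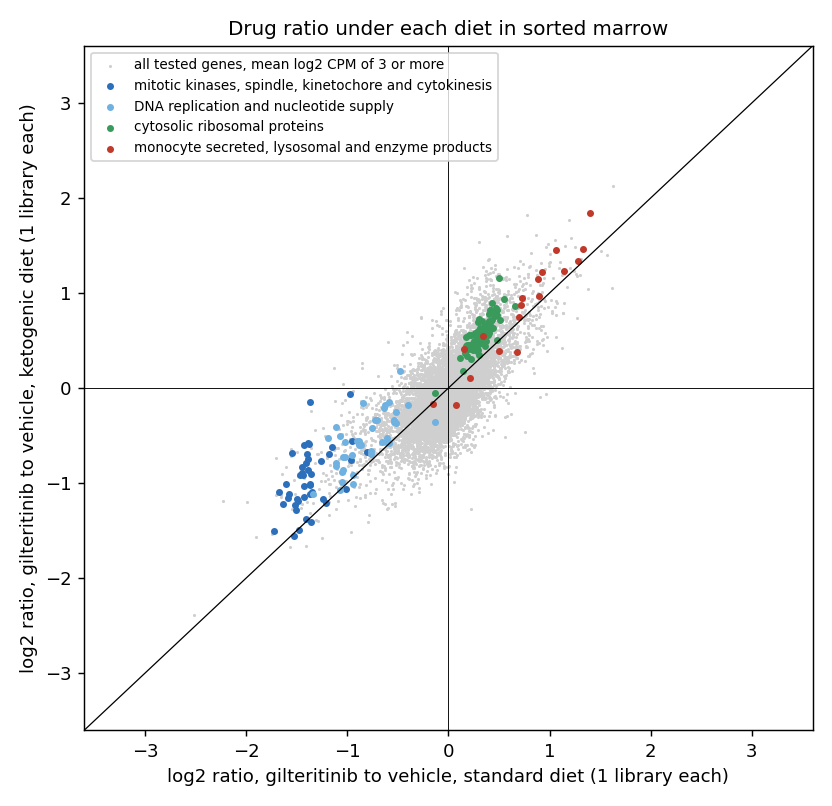
Each grey point is a tested gene whose mean log2 CPM is 3 or more, placed by the log2 ratio of the gilteritinib to the vehicle library under the standard diet (x axis) and the ketogenic diet (y axis), with 4 gene lists in colour and the diagonal marking equal ratios. Mitosis genes lie mostly above the diagonal (list medians -1.40 and -1.004), as do ribosomal protein genes (list medians 0.33 and 0.56).

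The drug response in sorted marrow was then set against that in the 4 other libraries, which their labels describe as unsorted extracts of liver that mix mouse and human cells. Their titles carry another code, so tissue, sorting and any batch behind that code cannot be told apart. The difference between the drug effects was tested in a fit of all 8 libraries. It was called for 367 of 14749 genes (2.49%), with 128 more positive in marrow (0.868%) and 239 more negative (1.62%). Of 45 mitosis genes 37 were more negative in marrow, where their median log2 fold change in this fit was -1.18 against -0.23 in the libraries labelled liver. TOP2A had log2 fold changes of -1.54 and -0.29 (difference -1.25, SE 0.16, edgeR adjusted p = 0.000362). Of 40 replication genes 27 were more negative in marrow (medians -0.72 and 0.074), and RRM2 had log2 fold changes of -1.22 and -0.015 (difference -1.21, SE 0.15, edgeR adjusted p = 0.000362). The number of calls over all genes went from 367 to 6 without the library labelled liver of vehicle with standard diet, and to 63 without that of gilteritinib with standard diet, so the count rests on those libraries.

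EGR1 had the widest gap among the signalling genes, at -2.46 in marrow and 0.047 in the libraries labelled liver (difference -2.51, SE 0.21, edgeR adjusted p = 8.22e-07). Of 25 immediate early genes 5 were more negative in marrow, EGR1, FOS, DUSP1, ZFP36 and TRIB1, and 1, FOSL2, was more positive. FOS itself was at -0.0018 in marrow and 0.53 in the libraries labelled liver (difference -0.53, SE 0.14, edgeR adjusted p = 0.0492). MYC had log2 fold changes of 0.39 in marrow and -0.25 in the libraries labelled liver (difference 0.64, SE 0.16, edgeR adjusted p = 0.0333). Of the monocyte products 9 of 24 rose more in marrow, such as TYROBP (1.07 against 0.15, difference 0.92, SE 0.16, edgeR adjusted p = 0.00248) and CTSD (1.01 against 0.17, difference 0.85, SE 0.17, edgeR adjusted p = 0.00803). For LYZ, HK3 and FCN1 no difference was called (log2 fold changes in marrow 1.40, 1.62 and 4.23, and 1.77, 1.47 and 4.11 under the other label), with SEs of the difference of 0.15, 0.27 and 0.69. PHGDH and PSAT1 fell more in marrow, at -1.38 against -0.39 (difference -0.99, SE 0.17, edgeR adjusted p = 0.00248) and -1.15 against -0.24 (difference -0.91, SE 0.16, edgeR adjusted p = 0.00274).

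**Figure D4:**
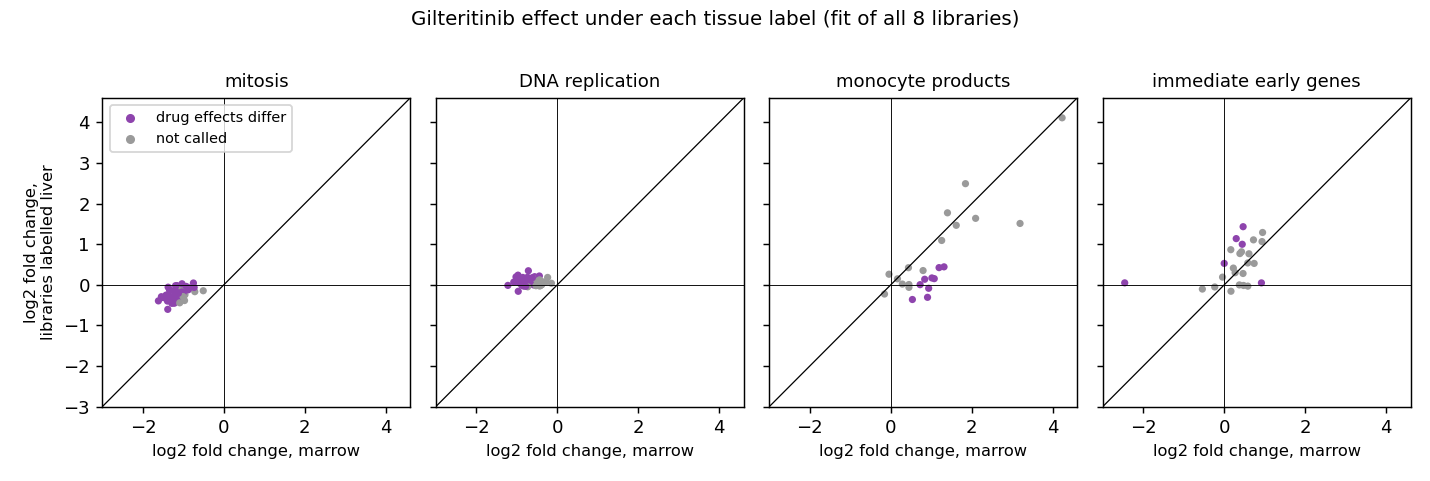
Each point is 1 gene of the list that heads its panel, placed by its gilteritinib log2 fold change in sorted marrow (x axis) and in the libraries labelled liver (y axis) from a fit of all 8 libraries, with purple for genes whose drug effects differ at an edgeR adjusted p under 0.05. Mitosis and replication genes lie near zero on the y axis (medians -0.23 and 0.074) and to the left on the x axis. Monocyte products had medians of 0.92 on the x axis and 0.21 on the y axis, and 9 of 24 were called more positive in marrow.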

How the data were processed

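Raw counts per gene were deposited as whole numbers for 8 libraries, and the reads had been aligned with STAR 2.7.3a to GRCh38, per the submitters' processing notes. The counting program, annotation and strand setting were not given in the sources used here, and reads of overlapping or antisense genes cannot be told apart. Some list members, such as ASNS, CD68, PRC1 and NOP2, had at most 6 counts in any marrow library. Whether reads of these genes were lost in counting was not tested, so a low count is not shown to be absence of the transcript. From the counts, genes with at least 10 counts in at least 2 of the 4 marrow libraries were kept (14029 of 60676). The drug effect was tested in R 4.3.3 with edgeR 4.0.16 (TMM scaling, robust quasi-likelihood test, diet as covariate, Benjamini-Hochberg adjustment over all tested genes, threshold 0.05). With 1 library per drug and diet, the fit had 1 residual degree of freedom, into which any interaction of drug and diet falls, and the spread was shared across genes (biological coefficient of variation 9.07%). Standard errors are the log2 fold change divided by the square root of the F statistic. CPM are TMM-scaled, except for marker sums and floors, which use library totals and cover counting error only. Differences between the marrow libraries and those labelled liver came from 1 fit of all 8 libraries (14749 genes).

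The members and the 39 gene lists were chosen with earlier results of these data known. Genes were named as the 12 largest rises and falls where the mean log2 CPM was 3 or more, the 8 largest rises and falls in mean CPM outside the mitochondrial genome, up to 4 called members of each list with mean log2 CPM of 1 or more, and 27 genes of interest. Others, among them FCN1, MSR1, CCR1, CHAC1, SLC7A11, PLK1, CDK1, POLE2, KLF2, FOSB, FOS, CEBPE, MPO, CTSD and the members given as not called, were chosen after their values were seen. Coordinates of genes are those of GENCODE 29 (GRCh38), matched by the table's gene identifiers (96.4%), and promoter windows are those of RefSeq (GRCh38.p14; 9403 tested genes matched by symbol). LYZ and ALDH1L2 had no entry. Some members of the lists are not reported here. Alternatives tried were limma-voom (version 3.58.1), the DESeq2 Wald test (version 1.42.0), other filters and scalings, the fit without diet, thinned counts, all 8 libraries, and each library left out. On simulated counts for 13736 genes, the marrow fit recovered 70% of 1.5-fold and 100% of 2-fold changes with 3.65% false calls. The simulation changed 50 genes at each fold size and gave 192 calls, against 2850 in the data. Its rate of false calls may therefore not hold for the reported calls.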

Additional observations from a re-analysis of the deposited data

Results flagged for a closer look

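Between sorted marrow and the libraries labelled liver, the drug effect itself differed for 367 genes in the fit of all 8 libraries (edgeR, adjusted p under 0.05). The difference (marrow minus the other label, log2 units) of the genes reported above was most negative for MSR1 (-3.18), EGR1 (-2.51), ALDH1L2 (-1.51), MELK (-1.49), E2F8 (-1.39), E2F7 (-1.34) and PBK (-1.34). It lay between -1.3 and -1 for TOP2A (-1.25), KIF14 (-1.22), CKAP2L (-1.22), PRIM1 (-1.21), POLE2 (-1.21), RRM2 (-1.21), CDCA2 (-1.18), KIF4A (-1.18), BUB1 (-1.17), ORC1 (-1.14), MCM10 (-1.11) and CDK1 (-1.09), all genes of the cell cycle. Smaller negative differences were those of PHGDH (-0.99), TRIB1 (-0.97), CCNE2 (-0.96), PMAIP1 (-0.95), RBL1 (-0.93), PSAT1 (-0.91), DUSP1 (-0.84), PLK1 (-0.83), TMPO (-0.81), MKI67 (-0.80), CDK2 (-0.78), TUBA1B (-0.77), TUBB (-0.71), ACAT2 (-0.67), HMGN2 (-0.60), H2AZ1 (-0.58), ZFP36 (-0.55), NUCKS1 (-0.55), IDH2 (-0.55), AARS1 (-0.55) and FOS (-0.53). Positive differences, with a more positive effect in marrow, were those of CD44 (0.54), RNASE2 (0.55), ICAM3 (0.56), FTH1 (0.60), MYC (0.64), MXD4 (0.64), CD63 (0.67), SMYD3 (0.69), NKG7 (0.73), FCER1G (0.77) and CCL5 (0.79). The largest ones were those of FCGRT (0.81), CTSD (0.85), FOSL2 (0.87), LGALS3 (0.87), TYROBP (0.92), GNLY (1.10), H1-2 (1.15), CD70 (1.15), HOMER3 (1.25), H2BC12 (1.26), CD163 (1.38), H2AC6 (1.46), H2BC5 (1.49) and CXCL10 (1.91). For some of these, such as MYC and CD70, the effect had opposite signs under the labels. The labels differ in tissue, sorting and title code, which cannot be told apart, and the number of such genes rests on the standard-diet libraries of the liver label, as given above. MSR1 stood at 0.330 and 0.624 CPM in the gilteritinib marrow libraries, so the size of its difference (SE 0.63) is poorly resolved.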

How the results depend on the processing

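The called genes numbered 2850 (1473 higher, 1377 lower) in the main setting. DESeq2 called 1170 (682 higher, 488 lower), the fit with no low-count filter 1221 (662 and 559, over more tests), and the fit without the diet term 1671 (933 and 738). Library totals as the scaling gave 874 higher and 2774 lower. The other scaling, filter, test and depth settings moved none of these counts by over 1.5 times. Leaving out 1 marrow library gave 862 to 1747 calls, with 374 to 987 higher and 484 to 771 lower. For the difference between labels, 207 genes were called with no low-count filter, and 6 to 462 with 1 library left out. Of 214 named genes, 198 were called, and 97 of these kept their call with each marrow library left out. None of the 198 changed direction under any setting run. The fits with 1 library left out could not show a change of direction. Each is the ratio of 1 diet pair, and all called genes had the same direction in both pairs. DESeq2 ended 58 calls and the fit without the diet term 49. Library totals as the scaling ended those of B2M, BAX, BST2, CCND2, CD33, HLA-B, HMOX1, ISG15, LDHB, MITF, MLXIP, MYC, NDUFB8, NOP16, RRP9, SDF2L1 and TXNIP. The cause was not tested for any of these. No paired analysis was possible because the labels give no replicate numbers, although diet as a covariate already compares the drug arms within each diet. Each drug and diet arm holds 1 library, a difference in drug effect between diets was not tested, and depths of 15557885 counts or more leave genes under about 1 CPM poorly resolved.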
